A study of Mus musculus with 34 samples.

Results

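Wt1, Upk1b, Upk3b, Msln, Gpm6a and Lrrn4, which mark the mesothelium of mouse liver, were followed in 34 arrays. They were chosen by symbol, as the probe sets whose only gene symbol is 1 of these 6, and for each gene the probe set of highest mean signal over the 34 arrays stood for it. They are 6 of 18193 genes measured. In all 11 probe sets carried their symbols, 4 of them for Upk1b, 2 each for Upk3b and Gpm6a, and 1 each for Wt1, Msln and Lrrn4. Each array held the liver or tumour RNA of 1 sample from C57/B6 mice, hybridised to an Affymetrix Mouse Genome array. At week 48 there were 5 tumours, 5 livers of Pdgf-c transgenic mice fed peretinoin, 5 livers of transgenic mice on the basal diet and 4 wild-type livers. At week 20 there were 5 livers of transgenic mice fed peretinoin, 5 livers of transgenic mice on the basal diet and 5 wild-type livers. The tumours came from transgenic mice. Peretinoin, a synthetic acyclic retinoid, was given at 0.06% of the diet from weaning at week 4, and no wild-type sample is labelled as fed with it. The transgene encodes platelet-derived growth factor C, a ligand that drives mesenchymal cells, and the promoter behind it and the number of founder lines are not given in the sources used here. No label says whether samples of a group came from separate mice, so p-values measure the spread between these samples.

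The mesothelium is the single layer of flat cells that covers the liver surface. It shares a developmental source with hepatic stellate cells, the vitamin A storing cells that become matrix-forming myofibroblasts in fibrosis, and in mouse embryos cells of the Wt1 lineage give rise to stellate cells. Its cells are few in a block of liver, and a bulk sample holds more or less of them with the amount of surface it includes. In bulk RNA, fewer cells of a type and less RNA per cell cannot be told apart.

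The 6 genes fall into 2 patterns. Wt1, a zinc finger transcription factor, followed the transgene: it was higher in transgenic than wild-type liver by 2.17 at week 20 and 2.11 at week 48 on the scale of log2(signal + 16), sizes that depend on the offset. No other of the 6 was called between transgenic and wild-type liver at either age. Upk3b, Gpm6a, Upk1b and Lrrn4, and less closely Msln, varied together from array to array inside the groups. Without 6 arrays that carry muscle or acinar transcripts, the median Pearson r of their pairs inside groups was 0.37. For pairs with Wt1 it was then 0.33. At week 48 all 6 had lower fitted levels with peretinoin than on the basal diet, on the probe sets that stood for them. They were lower by 0.45 to 1.39 on the log2 scale, and none of these differences was called. Upk1b 1435831_at (0.0041) and 1457065_at (0.10) did not fall.

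The signals were low, and their size sets how firmly they can be read. The deposited signals are MAS5 intensities, with the median probe set of an array between 71.5 and 95.7. By mean signal Wt1 (139) stood at the 59.1 percentile of all probe sets, Gpm6a (124) at 57.3, Upk1b (102) at 53.8, Upk3b (73.0) at 47.3, Lrrn4 (63.6) at 44.3 and Msln (48.5) at 38.2. Gpm6a lay above the median of its own array in 24 of 34 arrays, Upk1b in 23, Wt1 in 21, Upk3b in 15, Lrrn4 in 8 and Msln in 1. As a view of low signals, chosen after the values were seen, 43 probe sets of olfactory receptors, genes of the nose, had mean signals of 4.06 to 99.9. None of the 43 was higher than Wt1, Gpm6a or Upk1b, 2 were higher than Upk3b, 5 than Lrrn4 and 11 than Msln. The wild-type means of Wt1, at 36.0 at week 48 and 36.1 at week 20, lie inside the range of the olfactory receptors. The values carry no call of presence, so whether a low signal is transcript or background was not tested. In a filter that keeps the upper 60% of probe sets by mean signal, 5 of the 6 passed and Msln did not, so no such filter was used and all 6 were fitted. The liver label held: the 5 hepatocyte markers Alb, Apoa1, Ttr, Cps1 and Hnf4a gave 7391.2 to 60448.7 over all arrays.

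In 6 arrays, transcripts of skeletal muscle or pancreatic acinar cells had a mean log2 signal at least 3 above the median over the arrays, on either list. These were wild-type replicate 4, transgenic replicate 4 and peretinoin replicate 1 at week 48, and transgenic replicate 5 and peretinoin replicates 3 and 5 at week 20. Tumours and week 20 wild-type livers held none by this rule. The rule used only these lists, and week 48 transgenic replicate 1, at 2.54 above the median for muscle, was kept. Fat cell genes were not part of it. Results that turn on the 6 arrays are given with and without them. The ratio of 3' to 5' signal of Actb, a sign of RNA quality, was highest in week 20 livers of peretinoin-fed mice, at 1.70 to 3.31. It ran from 1.62 to 1.74 in week 20 transgenic livers and from 1.25 to 1.94 over all week 48 groups, with 1.81 to 2.16 in week 20 wild-type livers.

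**Figure D1:**
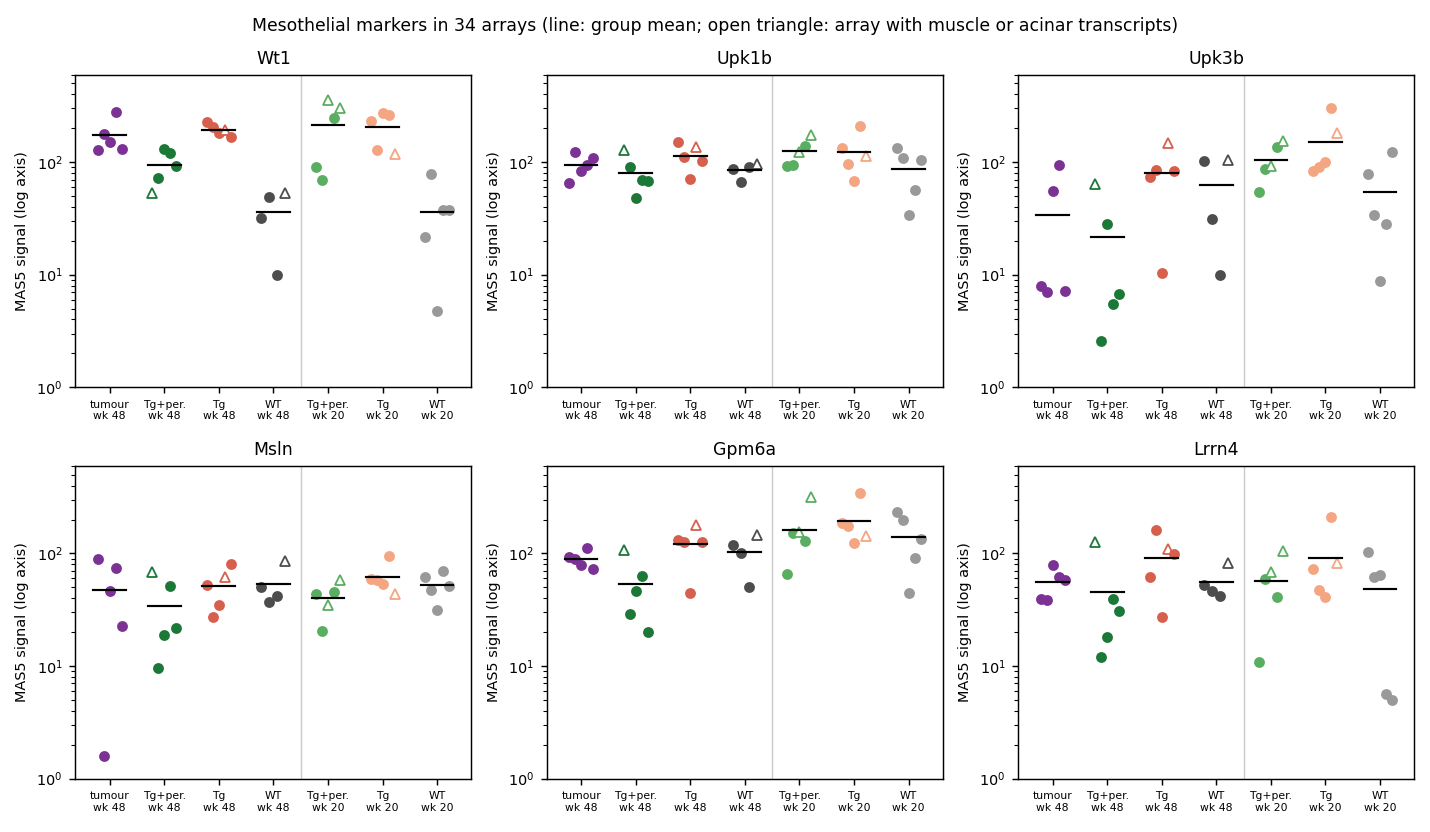
MAS5 signal (log axis, no unit) of each gene in every array, 1 panel a gene, with groups in columns and the mean of each group as a line. Open triangles are the 6 arrays with muscle or acinar transcripts. Wt1 is low in the wild-type columns, at 4.8 to 78.9, and above 100 in all transgenic livers on the basal diet and all tumours, while the other panels show columns that overlap.

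Wt1 was low in wild-type liver and high in every transgenic liver on the basal diet. At week 20 its signals were 233.8, 127.3, 274.2, 263.3 and 119.0 in transgenic livers, against 21.7, 78.9, 4.8, 37.6 and 37.6 in wild-type livers. At week 48 they were 225.0, 205.1, 180.4, 193.5 and 166.7 in transgenic livers, against 31.7, 49.3, 9.9 and 53.0 in wild-type livers. The groups did not overlap at either age, and the week 48 transgenic livers were the closest to each other, with a highest signal 1.35 times the lowest. The log2 change was 2.17 ± 0.38 (moderated SE) at week 20, with an adjusted p of 8.7e-05 in limma over all genes, and 2.11 ± 0.40 at week 48, with an adjusted p of 0.00032. Of all genes, 16.3% were called at week 20 and 14.3% at week 48. The groups did not overlap in 12.3% of genes at week 20 and in 16.5% at week 48.

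Wt1 was also high in tumours, at 128.7, 177.2, 149.4, 281.4 and 129.6. They lay above all week 48 wild-type livers, by a log2 change of 1.91 ± 0.40 (limma adjusted p = 0.00070), in a comparison in which 19.0% of all genes were called and 18.0% did not overlap. They overlapped the transgenic livers of the same age, with a log2 difference of -0.20 (95% interval -0.97 to 0.57). In that comparison limma called 0 of 18193 genes (0%), with 1390 at an unadjusted p under 0.05, so the 0 of 6 called here is the share of the whole array.

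The Wt1 calls held without the arrays that carry other tissue. Without those 6 arrays the log2 change was 2.32 at week 20 (limma adjusted p = 4.1e-05), 2.27 at week 48 (adjusted p = 0.00038) and 2.08 for tumours against wild-type liver (adjusted p = 0.00039). Its size depends on the offset of 16 that is added before taking logs, since the wild-type signals are close to that offset. Over the 11 alternatives other than left-out arrays it ran from 1.41 to 2.81 at week 20 and from 1.39 to 2.63 at week 48.

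The genes most like Wt1 across the 34 arrays were Smad6 (Pearson r = 0.93, Spearman rho = 0.87), an inhibitor of BMP and TGF-beta signalling, Tcf21 (0.92 and 0.87), a transcription factor of stellate cells and other mesenchyme, and Lum (0.91 and 0.82), the matrix proteoglycan lumican. They were the 3 highest of 12454 named genes in the upper 60% by signal, and the points share the 7 groups. Within groups, after subtracting each group's mean, r was 0.75 with Smad6, 0.73 with Tcf21 and 0.70 with Lum. The mean of 8 stellate cell and fibroblast genes had r = 0.90 with Wt1, or 0.66 within groups. Within groups the same mean had r = 0.60 with Gpm6a, 0.53 with Msln, 0.50 with Upk3b, 0.42 with Upk1b and 0.18 with Lrrn4. Over all arrays these ran from 0.069 (Msln) to 0.45 (Upk1b). The other 5 mesothelial genes ranked between 2179 and 8212 among the 18192 genes set against Wt1 by r. By r within groups they ranked between 625 (Gpm6a) and 8016 (Lrrn4).

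In week 20 livers of peretinoin-fed mice Wt1 and Tcf21 were low in the same arrays. These livers gave 89.6, 68.7, 353.4, 244.6 and 304.9 for Wt1, and Tcf21 gave 1789.4, 1264.4, 2500.0, 4104.9 and 3180.8 in the same order. Replicates 1 and 2 were the lowest for both genes, and they had the highest Actb ratios of 3' to 5' signal of all 34 arrays, at 2.66 and 3.31, against 2.54, 2.38 and 1.70 in replicates 3, 4 and 5. The part of RNA quality in these levels was not tested. Replicates 3 and 5, which were the highest for Wt1, are 2 of the arrays with muscle transcripts. Against the basal diet the log2 difference of Wt1 at week 20 was -0.10 (95% interval -0.87 to 0.67), or -0.81 without the arrays of other tissue, where limma gave an adjusted p of 0.33.

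At week 48 Wt1 gave 52.7, 72.1, 130.7, 120.8 and 92.7 in peretinoin-fed livers, against 225.0, 205.1, 180.4, 193.5 and 166.7 on the basal diet. Every peretinoin-fed liver was lower than every liver on the basal diet, a pattern found in 2.25% of all genes. The log2 difference was -0.98 ± 0.38, with an unadjusted p of 0.013 and an adjusted p of 0.27 in limma, so it was not called. Peretinoin replicate 1, the lowest at 52.7, carries muscle transcripts. Without the arrays of other tissue the difference was -0.83 (limma adjusted p = 0.49).

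**Figure D2:**
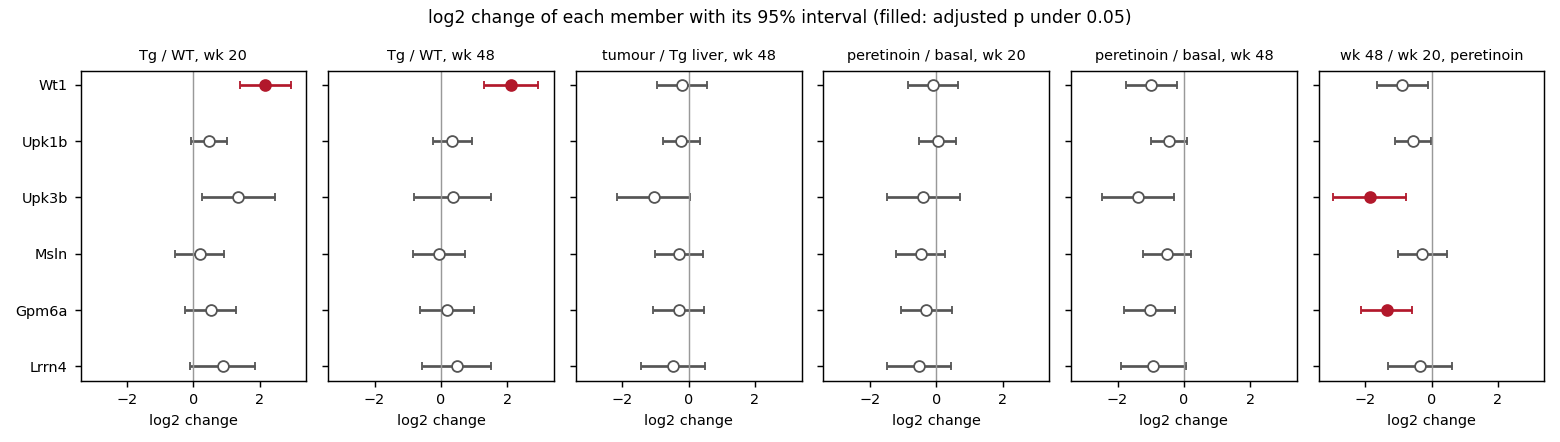
Log2 change of each gene with its 95% interval in 6 comparisons, on 1 scale, as the first-named group over the second. Filled red points passed an adjusted p under 0.05 in limma: Wt1 in both transgene panels, at 2.17 and 2.11, and Upk3b and Gpm6a in the panel of week 48 against week 20 under peretinoin, at -1.86 and -1.36.

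The set of promoter windows used held none for Wt1, Upk1b or Msln, which were not searched. Windows of the other 3 of the 6 genes, Upk3b, Lrrn4 and Gpm6a, are shown beside the signals that follow. They are RefSeq windows on build GRCm38.p6, each 250 bases before to 50 after an annotated start, printed 5′ to 3′ on the strand of the gene. Capitals mark CATTCC or its reverse complement GGAATG, the core that TEAD factors bind, a motif chosen after the windows had been read and searched on both strands.
Upk3b, chr5:136038246-136038545, plus strand: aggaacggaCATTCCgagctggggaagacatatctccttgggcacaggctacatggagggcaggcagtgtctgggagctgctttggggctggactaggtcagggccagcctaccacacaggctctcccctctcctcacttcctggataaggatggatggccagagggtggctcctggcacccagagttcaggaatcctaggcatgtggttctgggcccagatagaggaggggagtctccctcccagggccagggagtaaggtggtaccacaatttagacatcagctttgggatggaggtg
Lrrn4, chr2:132880813-132881112, minus strand: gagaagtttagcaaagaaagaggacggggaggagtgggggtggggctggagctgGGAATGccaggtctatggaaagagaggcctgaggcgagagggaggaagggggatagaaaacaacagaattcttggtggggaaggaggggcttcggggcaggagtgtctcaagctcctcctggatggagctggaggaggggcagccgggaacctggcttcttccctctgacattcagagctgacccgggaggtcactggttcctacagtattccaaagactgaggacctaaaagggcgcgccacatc
Gpm6a, chr8:54779184-54779483, plus strand: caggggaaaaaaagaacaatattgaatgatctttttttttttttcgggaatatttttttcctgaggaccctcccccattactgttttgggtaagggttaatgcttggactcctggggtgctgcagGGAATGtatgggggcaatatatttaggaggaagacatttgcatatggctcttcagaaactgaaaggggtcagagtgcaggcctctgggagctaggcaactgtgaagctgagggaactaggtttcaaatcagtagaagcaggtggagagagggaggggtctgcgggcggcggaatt
The motif stands once in each of the 3 windows, starting at base 10 in Upk3b, base 55 in Lrrn4 and base 126 in Gpm6a. A second annotated start of Gpm6a, at chr8:54954478-54954777, has none. Of 32851 windows of the same length over all genes, 14.7% hold it, so it is a common run of letters and its presence is a description, not a binding site.

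Upk3b encodes a uroplakin, a membrane plaque protein that urothelium and mesothelium make. At week 20 its signals were 83.3, 91.4, 100, 301.1 and 182.5 in transgenic livers, against 78.8, 33.9, 8.7, 28.1 and 122.2 in wild-type livers. The groups overlapped through wild-type replicate 5, which was higher than 3 of the 5 transgenic livers. The log2 change was 1.35 ± 0.54, with an unadjusted p of 0.017 and an adjusted p of 0.084 in limma, and was not called. Without that wild-type array it was 1.66 with an adjusted p of 0.044. At week 48 the signals were 74.3, 85.6, 10.3, 147.0 and 83.7 in transgenic livers, against 102.9, 31.5, 9.9 and 105.5 in wild-type livers, and the log2 change was 0.35 (95% interval -0.81 to 1.51). Each of these groups held 1 liver near 10.

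Upk3b was lowest in tumours and in week 48 livers of peretinoin-fed mice. Tumours gave 8.0, 7.0, 55.7, 93.4 and 7.1, so 3 of the 5 lay below all transgenic livers and the other 2 among them. The log2 difference to transgenic liver was -1.06 ± 0.54 (unadjusted p = 0.058, limma adjusted p = 0.68). On the other probe set of Upk3b, 1434237_at, it was -1.20 (unadjusted p = 0.026, limma adjusted p = 0.71). Peretinoin-fed livers at week 48 gave 64.2, 2.6, 28.0, 5.5 and 6.8, and replicate 1, the highest, carries muscle transcripts. The log2 difference to the basal diet was -1.39 ± 0.54 (unadjusted p = 0.015, limma adjusted p = 0.28), or -1.48 without the arrays of other tissue. At week 20 the signals with peretinoin were 54.1, 87.0, 92.1, 137.6 and 153.2, with a log2 difference of -0.39 (95% interval -1.48 to 0.71).

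Gpm6a encodes the membrane glycoprotein M6a, known from neurons and also made by mesothelium. At week 20 it gave 187.2, 174.5, 124.7, 342.0 and 144.0 in transgenic livers, against 233.0, 198.4, 44.7, 90.6 and 133.6 in wild-type livers, and the groups overlapped. At week 48 it gave 132.3, 125.3, 44.9, 179.4 and 126.2 in transgenic livers, against 117.7, 101.7, 49.9 and 145.1 in wild-type livers. The log2 changes were 0.52 (95% interval -0.25 to 1.29) and 0.18 (-0.64 to 0.996). At week 20, 2 wild-type livers lay below every transgenic liver, and at week 48 the ranges were much alike. Tumours were even, at 93.1, 90.0, 78.8, 112.7 and 73.3, with a log2 difference to transgenic liver of -0.30 (-1.07 to 0.47).

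Gpm6a had its lowest level in week 48 livers of peretinoin-fed mice, at 107.9, 28.9, 46.6, 63.6 and 20.0. Replicate 1, the array with muscle transcripts, was the only one of the 5 above 100. Against the basal diet the log2 difference was -1.03 ± 0.38 (unadjusted p = 0.010, limma adjusted p = 0.25). Without the arrays of other tissue it was -1.12 (adjusted p = 0.29). At week 20 the signals with peretinoin were 65.1, 151.4, 153.5, 127.9 and 316.4, again with a muscle-carrying array (replicate 5) highest, and the log2 difference was -0.30 (95% interval -1.07 to 0.47).

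Upk1b encodes uroplakin 1b, a tetraspanin. On its probe set of highest mean it gave 132.9, 95.7, 68.5, 208.9 and 114.2 in week 20 transgenic livers, against 132.3, 108.8, 33.8, 57.0 and 103.8 in wild-type livers. At week 48 it gave 152.0, 112.1, 70.3, 135.9 and 102.2 in transgenic livers, against 87.2, 66.2, 90.8 and 96.9 in wild-type livers. The groups overlapped at both ages, and the log2 changes were 0.47 (95% interval -0.09 to 1.03) and 0.34 (-0.25 to 0.93). Peretinoin-fed livers at week 48 gave 128.1, 89.7, 48.2, 69.1 and 68.6, a log2 difference to the basal diet of -0.45 (-1.004 to 0.11), and the muscle-carrying replicate 1 was again the highest. Tumours ranged from 65.0 to 122.7, and week 20 livers with peretinoin from 92.1 to 172.4.

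The 4 probe sets of Upk1b disagreed. Probe set 1435831_at had nearly the same mean signal, 101, as the 1455464_x_at that stood for the gene. Yet it was flat with the transgene, with log2 changes of -0.06 at week 20 and -0.01 at week 48. Probe set 1439760_x_at, of mean signal 67.9, varied most: it gave 75.6, 86.7, 74.3, 279.6 and 108.8 in week 20 transgenic livers, against 85.4, 47.1, 5.7, 30.3 and 128.8 in wild-type livers. Its log2 changes with the transgene were 1.01 at week 20 and 0.94 at week 48, and with peretinoin at week 48 -1.13 (unadjusted p = 0.051). The last, 1457065_at (mean 62.4), had changes with the transgene of -0.27 and 0.67. With peretinoin at week 48 the log2 difference was 0.0041 for 1435831_at and 0.10 for 1457065_at. None of these was called in limma over 45037 probe sets.

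The 2 probe sets of Upk1b whose names end in x_at, a suffix for probes that may also bind other transcripts, were the ones that moved with the other genes. Within groups, r with Upk3b was 0.53 for 1455464_x_at and 0.78 for 1439760_x_at, against 0.20 for 1435831_at and 0.38 for 1457065_at. With Gpm6a it was 0.72 and 0.77, against 0.18 and 0.42. The 2 x_at probe sets had r = 0.67 with each other, and 0.12 was found between 1455464_x_at and 1435831_at. Which of them follows Upk1b transcript was not tested.

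**Figure D3:**
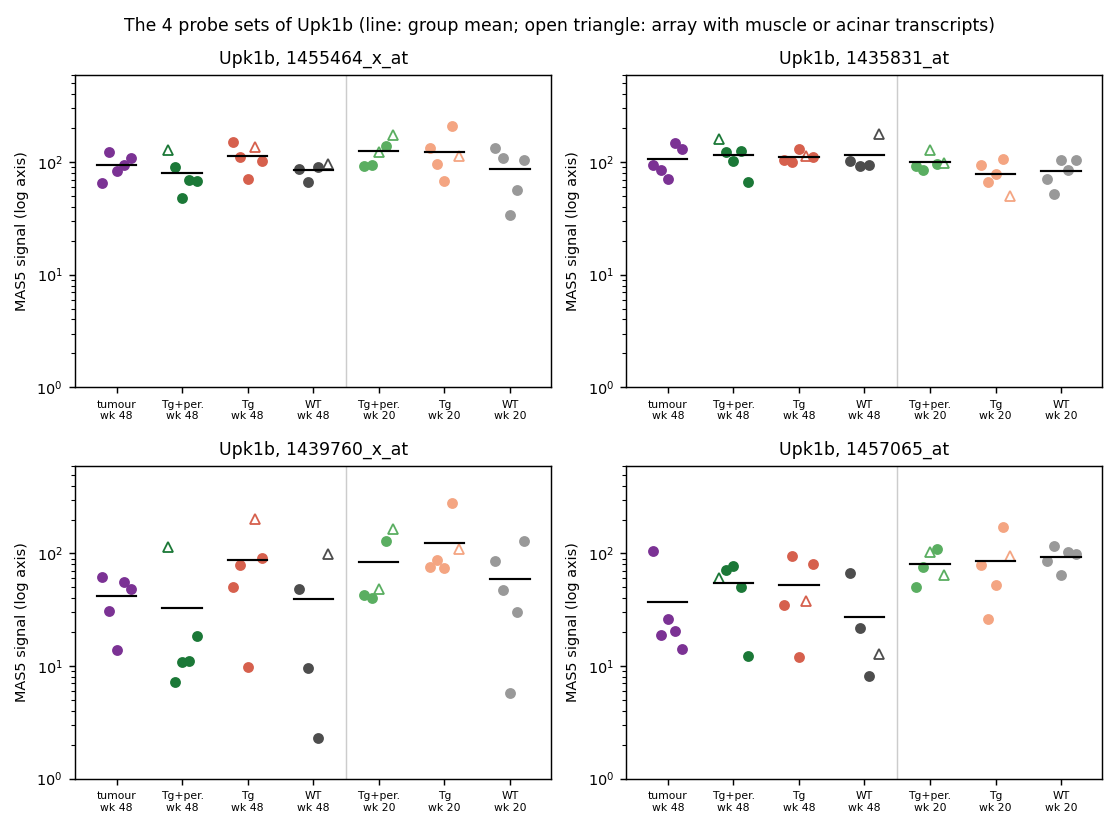
MAS5 signal (log axis, no unit) of the 4 probe sets of Upk1b in every array, with the mean of each group as a line and open triangles for the 6 arrays with muscle or acinar transcripts. Probe set 1435831_at stays between 50 and 176.7 in all arrays, while 1439760_x_at runs from 2.3 to 279.6.

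Lrrn4, a leucine-rich repeat membrane protein, spread widely in wild-type liver. At week 20 it gave 73.0, 47.8, 41.3, 209.6 and 82.5 in transgenic livers, against 103.7, 62.2, 64.2, 5.6 and 5.0 in wild-type livers. At week 48 it gave 62.1, 162.2, 27.0, 108.6 and 98.7 in transgenic livers, against 51.9, 46.4, 41.9 and 81.4 in wild-type livers. The log2 changes were 0.88 (95% interval -0.09 to 1.85) and 0.47 (-0.56 to 1.501), with overlapping groups, and 2 wild-type livers of week 20 near 5 stood far below the other 3. Peretinoin-fed livers at week 48 gave 126.2, 12, 18.1, 39.3 and 30.7, a log2 difference to the basal diet of -0.92 ± 0.48 (unadjusted p = 0.062, limma adjusted p = 0.47). Without the arrays of other tissue, of which replicate 1 at 126.2 is 1, it was -1.20. Tumours ranged from 38.8 to 79.7.

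Msln encodes mesothelin, a surface protein anchored in the membrane by a lipid. It was the dimmest of the 6 and had the smallest changes with the transgene. At week 20 it gave 59.2, 58.6, 53.0, 95.1 and 43.3 in transgenic livers, against 62.1, 47.4, 31.2, 69.3 and 51.6 in wild-type livers, a log2 change of 0.18 (95% interval -0.55 to 0.92). At week 48 transgenic livers ranged from 27.3 to 79.9, against 37.1 to 84.8 in wild-type livers, with a log2 change of -0.06 (-0.84 to 0.71) whose sign turned under several alternatives. Tumours ran from 1.6 to 89.9, which covers nearly its whole range. Peretinoin-fed livers gave 9.5 to 68.1 at week 48 and 20.5 to 57.9 at week 20, with log2 differences to the basal diet of -0.51 (-1.24 to 0.22) and -0.47 (-1.20 to 0.26).

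Read as a list, on the probe sets that stood for them, the 6 genes were mostly higher with the transgene. At week 20 all 6 log2 changes were positive, with a median of 0.70 against 0.02 over all genes, of which 48% were negative. At week 48 5 of 6 were positive, with a median of 0.35 against 0.00012 over all genes, of which 50% were negative. At each age 1 of the 6 was called, about the share of all genes (16.3% and 14.3%). Against transgenic liver all 6 were lower in tumours on these probe sets, with 0 called and 0 at an unadjusted p under 0.05. The median was -0.29 against 0.01 over all genes, of which 48.5% were negative. Against wild-type liver tumours had 1 called, which was Wt1, about the share of all genes (19.0%), and a median of -0.06 against -0.0030, with 50.3% of all genes negative.

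Under peretinoin at week 48 all 6 differences were negative on the probe sets that stood for the genes. Upk1b 1435831_at (0.0041) and 1457065_at (0.10) did not fall. The median of the 6 was -0.95 against -0.02 over all genes, of which 53.6% were negative. None was called, in a comparison in which limma called 0.341% of all genes. An unadjusted p under 0.05 was found for 3 of the 6 (Wt1, Upk3b and Gpm6a), and for 2122 of all 18193 genes. At week 20 5 of 6 were negative, with a median of -0.34 against -8.8e-05, 0 called, 0 at an unadjusted p under 0.05 and 1.45% of all genes called. The difference between the ages was tested itself: 0 of 6 were called, 0 had an unadjusted p under 0.05, and the median was -0.61 against -0.03, with 0.264% of all genes called. Likewise 0 of 6 were called for the change of the transgene effect with age, where the median was -0.29 against -0.01 and 0.110% of genes were called.

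On the probe sets that stood for the genes, no member was called between the ages without peretinoin, and none had an unadjusted p under 0.05. Upk1b 1457065_at had a log2 difference of -1.49 in wild-type livers (unadjusted p = 0.0017, limma adjusted p = 0.051). Upk1b 1435831_at had one of 0.46 in transgenic livers on the basal diet (unadjusted p = 0.049, limma adjusted p = 0.21). Neither was called. In transgenic livers on the basal diet 0 of 6 were called between week 48 and week 20, with a median of -0.15 against -0.02 and 10.6% of all genes called. In wild-type livers 0 of 6 were called, with a median of 0.07 against -0.01 and 4.74% called. Wt1 averaged 194 ± 22.4 at week 48 and 204 ± 74.9 at week 20 in transgenic livers (SD, n = 5 each), and 36.0 ± 19.7 (n = 4) and 36.1 ± 27.5 (n = 5) in wild-type livers.

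Week 48 against week 20 under peretinoin was compared after the values had been seen. All 6 were lower at week 48, and 2 were called: Upk3b, at a log2 difference of -1.86 ± 0.54 (limma adjusted p = 0.026), and Gpm6a, at -1.36 ± 0.38 (adjusted p = 0.021). The median was -0.72 against -0.05 over all genes, of which 9.15% were called. Both calls were fragile. Without the arrays of other tissue Upk3b stayed called at -2.04 (adjusted p = 0.047) and Gpm6a, at -1.23, did not (adjusted p = 0.070). Leaving out week 20 replicate 5 ended both calls, at adjusted p of 0.056 and 0.069, as did leaving out week 48 replicate 2 (0.066 and 0.053) or week 48 replicate 5 (0.069 and 0.076). Leaving out week 20 replicate 4 or week 48 replicate 4 ended the call of Upk3b (0.057 and 0.060), and leaving out week 20 replicate 2 added Wt1 at -1.18 (0.049). With all arrays Wt1 had a difference of -0.88 (limma adjusted p = 0.15), and of -0.17 without the arrays of other tissue (limma adjusted p = 0.85). The other probe set of Gpm6a, 1426442_at, had a difference of -0.14, and that of Upk3b, 1434237_at, of -1.04, neither called.

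In the order of group means, Wt1 ran from week 20 peretinoin (212) and week 20 transgenic (204) through week 48 transgenic (194) and tumours (173) to week 48 peretinoin (93.8) and the wild-type livers of week 20 (36.1) and week 48 (36.0). The ranges of each pair of neighbours in that order overlapped. For the other 5 genes neighbours overlapped at every step too. Week 48 livers of peretinoin-fed mice had the lowest mean of all 7 groups for Upk1b (80.7), Upk3b (21.4), Msln (33.9), Gpm6a (53.4) and Lrrn4 (45.3), on the probe sets that stood for the genes. On Upk3b 1434237_at their mean of 22.8 was above that of tumours (8.74) and week 48 wild-type livers (20.6), and on Upk1b 1435831_at it was the second highest (115.8).

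Inside groups the members other than Wt1 tended to be high in the same arrays. In 4 of the 7 groups the same array was the highest for all 5: week 48 peretinoin replicate 1, week 48 wild-type replicate 4, week 20 peretinoin replicate 5 and week 20 transgenic replicate 4. The first 3 of these carry skeletal muscle transcripts and the last does not. In that transgenic liver Gpm6a reached 342.0, Upk3b 301.1, Lrrn4 209.6, Upk1b 208.9 and Msln 95.1, the highest signal of all 34 arrays for each. Its 6 muscle genes summed to 150.9, the lowest of its group, and its 4 acinar genes to 1381.5. Its 3 fat cell genes (Adipoq, Lep and Retn) summed to 411.7, against 28.6 to 138.3 in the other week 20 transgenic livers.

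As deviations from the group mean, the 10 pairs without Wt1 had Pearson r between 0.18 and 0.72 with a median of 0.49 over 34 arrays. The highest were Upk1b with Gpm6a (0.72, Spearman rho 0.66), Upk3b with Gpm6a (0.71, rho 0.69) and Gpm6a with Lrrn4 (0.64, rho 0.64). Leaving out the 2 arrays farthest from the median gave 0.64, 0.69 and 0.74, and leaving out the 6 arrays with other tissue gave 0.66, 0.68 and 0.52. Over all 10 pairs the median without those 6 arrays was 0.37, with a range of 0.01 to 0.68. The 5 pairs with Wt1 had r between 0.06 and 0.44, with a median of 0.28. Without those 6 arrays their median was 0.33, with a range of 0.0042 to 0.49, close to that of the other pairs. These points share arrays, scaling and groups, and are given as a description.

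**Figure D4:**
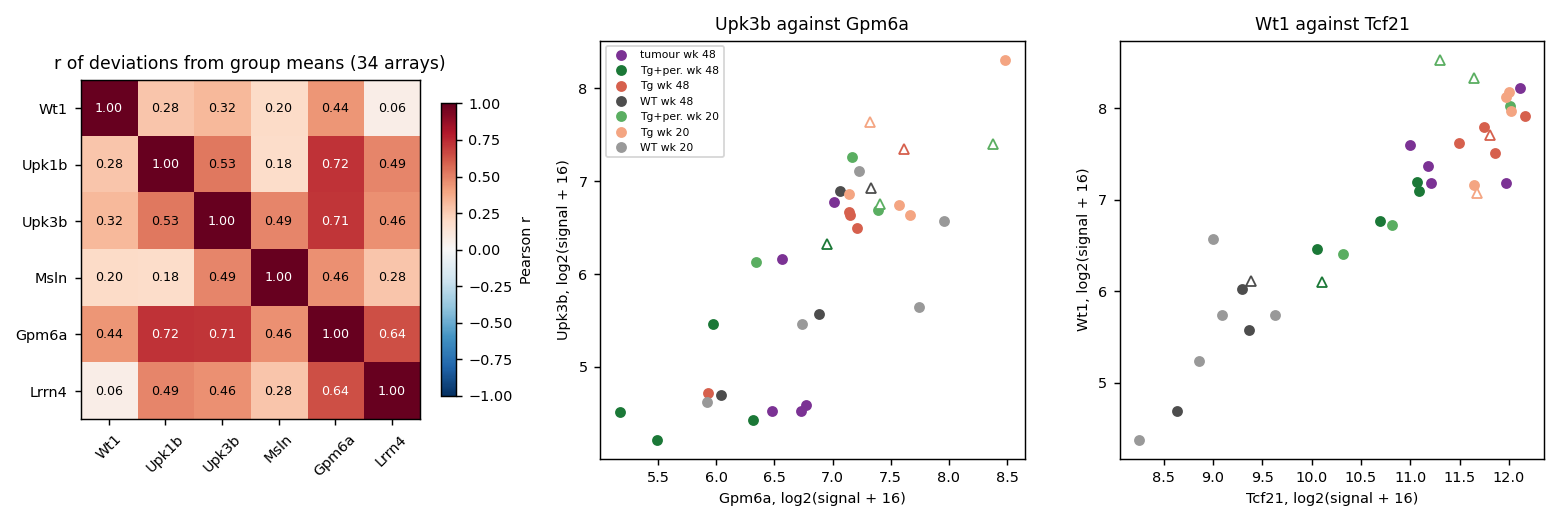
Left, Pearson r between the 6 genes over 34 arrays after subtracting group means, as coloured cells with their values. Middle and right, log2(signal + 16) of Upk3b against Gpm6a and of Wt1 against Tcf21, 1 point an array coloured by group, with open triangles for the 6 arrays with muscle or acinar transcripts. Upk3b and Gpm6a spread along 1 line across the groups. In the Wt1 panel the wild-type points lie below all others for Tcf21, while for Wt1 some peretinoin-fed points overlap them.

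By r of log2 signal over the 34 arrays, Gpm6a ranked 1 of 18192 for Upk1b, 2 for Upk3b and 6 for Lrrn4, and Upk3b ranked 1 for Gpm6a. Upk1b was most like Gpm6a (r = 0.71), Zfp185 (0.69), a cytoskeletal LIM protein, and Itm2a (0.66). Upk3b was most like Igfbp5 (0.81), a binding protein of insulin-like growth factors, Gpm6a (0.81) and Kazald1 (0.79). Gpm6a was most like Upk3b, Pdpn (0.77), the podoplanin of mesothelium and lymphatic vessels, and Abi3bp (0.75). Lrrn4 was most like Fmod (0.63), the matrix protein fibromodulin, Cpxm2 (0.62) and Agtpbp1 (0.61). Msln was most like Disp1 (0.73), Sema3c (0.72), a secreted semaphorin, and Pak6 (0.71), and r fell to 0.61, 0.62 and 0.56 without its 2 farthest arrays.

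Fat cell and muscle transcripts were set beside these genes inside groups. The mean of the 3 measured fat cell genes had r of 0.66 with Upk1b, 0.60 with Gpm6a, 0.49 with Upk3b, 0.45 with Lrrn4, 0.26 with Msln and 0.23 with Wt1. Without the 6 arrays of other tissue these were 0.80, 0.57, 0.38, 0.44, 0.12 and 0.094. The summed fat cell signal ranged from 26.2 to 133.2 in tumours, from 42.6 to 112.7 in week 48 peretinoin livers, from 66.6 to 1282.1 in week 48 transgenic livers and from 136.5 to 1042.8 in week 48 wild-type livers. At week 20 it ranged from 28.2 to 552.6 in wild-type, 28.6 to 411.7 in transgenic and 20.6 to 171.4 in peretinoin-fed livers. Week 20 wild-type replicate 1, at 552.6, was not 1 of the 6 arrays. It was the highest of its group for Upk1b, Gpm6a and Lrrn4. Lep, a defining gene of fat cells, stayed between 1.1 and 9.4 everywhere. The mean of the 6 skeletal muscle genes had r of 0.55 with Gpm6a, 0.46 with Lrrn4, 0.44 with Upk3b, 0.42 with Upk1b, 0.40 with Msln and 0.18 with Wt1. Without the 6 arrays of other tissue these were 0.058, -0.066, 0.013, 0.20, 0.090 and 0.11. Their summed signal ran from 208 to 84424.5 in week 48 peretinoin livers and from 217.9 to 94315.4 in week 48 transgenic livers. The part of either tissue in the levels of the 6 genes was not tested. With the hepatocyte list, the 6 members had r between -0.24 and -0.05.

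Other genes of the mesothelium were read from a list of 15. Of all 18193 genes, 1993 rose and 974 fell with the transgene at week 20. At week 48, 1770 rose and 837 fell. With the transgene at week 20, 5 of the 15 rose, 0 fell and 10 were not called (median 0.37): Aldh1a2 by 1.56, an enzyme of retinoic acid synthesis, Alcam by 1.501, an adhesion molecule, Slpi by 1.24, a protease inhibitor, Rspo1 by 1.17, a Wnt agonist, and Cd200 by 1.11. At week 48 4 rose and 11 were not called (median 0.17): Slpi by 1.86, Alcam by 1.67, Efemp1 by 0.98 and Cd200 by 0.81. Muc16, the partner that mesothelin binds, had changes of 0.07 and -0.16, the transcription factor Bnc1 of -0.07 and 0.27, and the calcium-binding Calb2 of 0.11 and -0.20, none called. Bnc1 and Calb2 lay above the array median in 0 of 34 arrays and Muc16 in 7. Of the genes that rose at week 20, Rspo1 lay above it in 1 array, Aldh1a2 in 7 and Cd200 in 32. Alcam, Slpi, Efemp1, Prg4 and Ildr2 lay above it in all 34 arrays, and other liver cells also make some of them.

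Under peretinoin 1 of the 15 rose at week 20, Alcam by 1.01, where 1.45% of all genes were called. At week 48 0 of the 15 were called (median -0.26), where 0.341% of all genes were called. Within groups the mean of the 15 had r = 0.79 with Gpm6a, 0.70 with Upk1b, 0.63 with Upk3b and with Lrrn4, 0.52 with Msln and 0.28 with Wt1. Of 4 keratins of simple epithelia, which mesothelium shares with bile ducts and partly with hepatocytes, 0 were called with the transgene at week 20 and Krt18 rose by 0.61 at week 48. The 5 measured bile duct markers had 0 called at either age. Of 8 stellate cell and fibroblast genes, 6 rose at week 20 (median 2.11) and 7 at week 48 (median 1.63). Of all 18193 genes, 1993 and 1770 rose with the transgene at these ages. The summed signal of the 8 at week 20 was 33522 to 37494.7 in transgenic livers, against 5421.7 to 15197.9 in wild-type livers.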

How the data were processed

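The deposited values are signal intensities. The submitters' processing notes name MAS5 as the tool, without a version. They are linear, and the 2% trimmed mean of every array was 500.003 to 500.004. Probe sets were named through the platform's probe table, in which 34945 of 45101 have exactly 1 symbol. Each signal was taken as log2(signal + 16), 1 probe set a gene. One model of 7 groups over 34 arrays, with no filter on low signals, was run in limma 3.58.1 under R 4.3.3, using lmFit and eBayes with an intensity trend. A gene was called at a two-sided Benjamini-Hochberg adjusted p under 0.05 over 18193 genes, within each comparison. The number of arrays limits the precision. The members, the gene lists and the tests were chosen with earlier results of these data known. Named genes were the members, the 3 genes of highest r with each, and from each list those of smallest p in the transgene comparisons or needed by a sentence. Likeness skipped clones and genes named Gm, Rik or LOC. Alternatives were offsets of 1 and 64, quantile normalisation, median centring, the upper 60% filter, averaged or separate probe sets, only the arrays compared, array weights, a replicate block, no arrays of other tissue, and each array left out in turn. The fit was tested on simulated data.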

Additional observations from a re-analysis of the deposited data

Results flagged for a closer look

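Gpm6a in week 48 transgenic liver on the basal diet gave a signal of 44.9 in replicate 3, against 125.3 to 179.4 in the other 4. Its gap to the nearest other array was 0.722 of the range of the group on the log2 scale, past the limit of 0.710 for 5 values. It was the 1 such array in 42 sets of values (6 genes in 7 groups), and chance flags about 1 in 20. In the same array Upk3b was 10.3, Lrrn4 27.0 and Upk1b 70.3, each the lowest of its group, while Wt1 was 180.4.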

How the results depend on the processing

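Of 1659 changes of single genes recomputed over 45 settings, 1627 kept their direction and their side of the threshold, 18 turned sign, 12 lost the call and 2 gained it. The calls of Wt1 held under every setting run: with an array left out, its log2 change ran from 1.88 to 2.43 (transgene, week 20), 1.80 to 2.28 (transgene, week 48) and 1.60 to 2.08 (tumour against wild type). Week 48 against week 20 under peretinoin had 2 members called, but 0 with averaged probe sets (Upk3b -1.45, adjusted p = 0.067; Gpm6a -0.75, 0.15), 1 with only the arrays compared (Gpm6a -1.36, 0.088), 1 without arrays of other tissue, and 0 to 3 with an array left out. The transgene at week 20 had 1 to 2 members called with an array left out. Signs turned only in values that were not called. Msln with the transgene at week 48 was 0.028 with quantile normalisation, 0.019 with median centring, 0.067 without arrays of other tissue, and -0.21 to 0.13 with an array left out. Upk1b with peretinoin at week 20 was -0.020 with averaged probe sets, -0.11 without arrays of other tissue, and -0.11 to 0.24 with an array left out. Left-out arrays also turned Upk3b (-0.089 to 0.77) and Gpm6a (-0.082 to 0.45) with the transgene at week 48, both through wild-type replicate 3, Msln in tumours (-0.54 to 0.11, through tumour replicate 2), and Wt1 with peretinoin at week 20 (-0.33 to 0.20). The cause was not tested. The labels number replicates alike in each group, and whether the numbers pair samples was not settled. Same-numbered arrays of tumour and transgenic liver had correlations of deviations of 0.085 to 0.37, with 4 of 5 pairs over 0.1. At week 48, 3 of 4 pairs were over 0.1 for the transgene and 3 of 5 for peretinoin. For peretinoin at week 20 it was 0 of 5, and in no comparison was every pair over 0.1. With the replicate block, members called stayed 1 for the transgene at either age and 0 for tumour against transgenic liver. They also stayed 0 for peretinoin at either age and 2 under peretinoin between ages. Upk3b with the transgene at week 20 had a limma adjusted p of 0.066 with the block. Over these settings, other than left-out arrays, the counts over all genes ran from 2404 to 4602 for the transgene at week 20 (2967 as reported), 2134 to 4279 at week 48 (2607), 0 to 46 for tumour against transgenic liver (0), 70 to 1021 for peretinoin at week 20 (264), 3 to 111 at week 48 (62), 3094 to 5985 for tumour against wild type (3460), 256 to 1427 for age in wild-type (862), 1493 to 4314 in transgenic (1937) and 452 to 4704 in peretinoin-fed livers (1664), 15 to 62 for transgene by age (20) and 5 to 222 for peretinoin by age (48). Low signal limits Msln most, which was above its array's median in 1 of 34 arrays.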
